A study of Pyrus betulifolia with 6 samples.

Results

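Cytochrome P450 enzymes carry a heme group and use molecular oxygen and electrons from a reductase to oxidise small molecules. In plants, the A-type families work mostly on phenylpropanoids and other defence compounds, whereas the non-A-type families act on older substrates such as sterols, fatty acids, carotenoids, triterpenes and hormones. The non-A-type P450 genes described here were those whose protein description reads "cytochrome P450" followed directly by a family number and letter of the non-A-type families, leaving out abscisic acid hydroxylases and members of the phenylpropanoid pathway. Of the 37815 genes listed, 69 met this rule, and they fell into 12 of the 19 families named in it. CYP714 held 14 genes, CYP94 13, CYP86 10, CYP704 7, CYP734 7, CYP716 4, CYP90 4, CYP724 3, CYP87 3, CYP85 2, CYP97 1 and CYP72 1. No gene written this way was found for CYP88, CYP96, CYP715, CYP721, CYP722, CYP735 or CYP749. A P450 protein domain was annotated for 68 of the 69 genes and heme binding for all 69. The KEGG pathway of cutin, suberine and wax held 14 of them, brassinosteroid biosynthesis held 12, and 42 had no pathway.

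The samples were root tips of wild-type Pyrus betulaefolia, a wild pear used as rootstock. The B deficiency group was kept for 24 h in nutrient solution without boron, and the control group received the same solution with boron. Each group had 3 libraries, labelled as biological replicates, and whether these came from separate boxes of plants is not stated. Expression was given as FPKM, fragments scaled by transcript length and by the mapped fragments of the library, on gene models of another pear, P. bretschneideri.

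The members covered a wide range of levels. In all 6 libraries 10 were listed at 0, another 24 were above 0 but had a mean under 0.5 FPKM, with no library above 0.8 FPKM, and the remaining 35 were tested. The means of the tested members lay between 0.603 and 62.3 FPKM, with 11 genes at 10 FPKM or more, 19 between 1 and 10 FPKM and 5 under 1 FPKM. One CYP87A3 gene, LOC103936676, reached the minimum only through its B deficiency libraries. A gene was called when its absolute log2 fold change, B deficiency over control on log2(FPKM + 0.1), was at least 1 and its Benjamini-Hochberg adjusted p from limma over all 28129 genes tested was under 0.05. Root tips hold several cell types, so fewer cells of a type and less RNA per cell cannot be told apart in these values.

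B deficiency library 2 stood apart from the other libraries of its group. Over the tested members, its median absolute log2 deviation from the other B deficiency libraries was 0.37, against 0.20 and 0.25 for libraries 1 and 3 and 0.10 to 0.13 for the control libraries. Over all tested genes the same measure was 0.20 for library 2, 0.14 for libraries 1 and 3 and 0.10 for each control library. Where leaving out library 2 moved a member across a threshold, the value without it is given as well. Of the 16 genes on the root tip marker list, 14 were above 0 in every library, and their sum was 145 to 149 FPKM under B deficiency, against 147 to 155 FPKM in control. Of the 15 root tip markers tested 1 was called higher and 0 lower, which is 6.67% beside 8.19% of all genes. An adjusted p under 0.05 was found for 5 of them, beside 27.3% of all genes. Of the 59 leaf marker genes 6 were at 0 throughout, and their sum was 638 to 687 FPKM under B deficiency, against 674 to 701 FPKM in control. In that list 8 of 31 tested genes were called lower and 0 higher, which is 25.8% lower beside 3.83% of all genes. The median log2 fold change of its tested genes was -0.62, beside -0.05 for all genes. The part of the leaf marker genes in the results on the P450 genes was not tested.

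Of the 35 tested members, 7 were called, 3 of them higher and 4 lower in B deficiency. That is 20% of the members tested, beside 8.19% of all genes tested, with 4.37% called higher and 3.83% called lower. An adjusted p under 0.05 at any fold was found for 17 members, 10 higher and 7 lower, against 27.3% of all genes. Of these 17, 12 kept it whichever library was left out. The values of the groups did not overlap for 23 members, which lay above control in 14 and below it in 9, and the share of all genes without overlap was 45.1%. The median log2 fold change of the tested members was 0.12, with a range of -1.21 to 8.62, and that of all genes was -0.05. The 3 higher genes belonged to CYP87A3, CYP716B1 and CYP94C1, and the 4 lower genes to CYP94C1, CYP86A1, CYP86A8 and CYP714A1. The CYP87A3 gene, LOC103936676, passed the minimum level only through its B deficiency libraries. Its call is included in these counts but is given as a description.

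**Figure D1:**
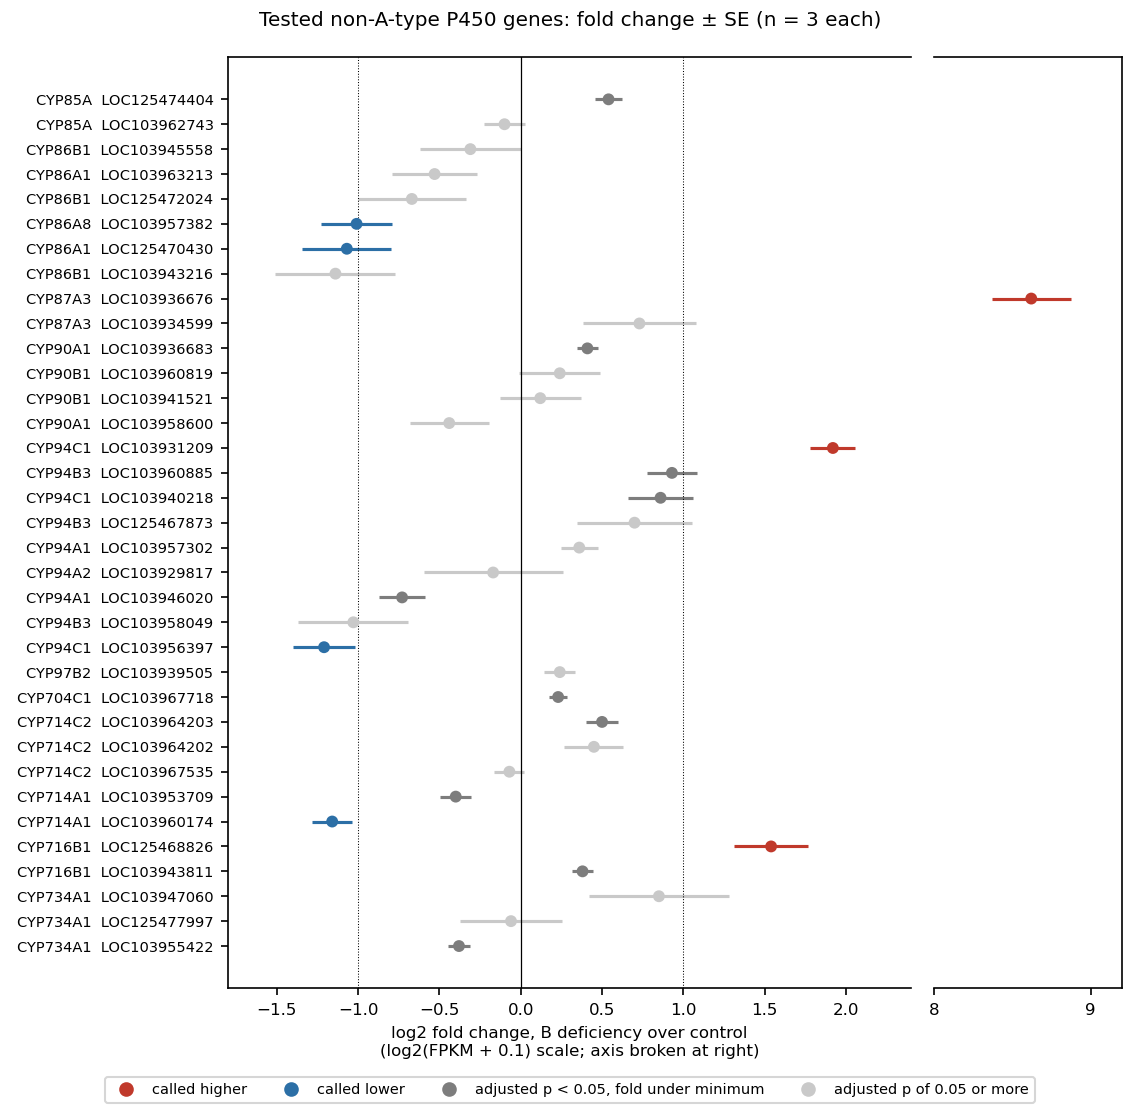
Log2 fold change (B deficiency over control, on log2(FPKM + 0.1)) of the 35 tested members, with bars of 1 SE from limma (n = 3 each) and dotted lines at the minimum fold for a call. The horizontal axis is broken, with CYP87A3 LOC103936676 alone at 8.62 in the right-hand section, 3 genes are called higher and 4 lower, and all 6 CYP86 genes lie left of 0.

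The most pronounced difference among the members was that of a CYP87A3 gene. CYP87A3 was described in rice as an auxin-inducible gene, and the family belongs to the CYP85 clan, many of whose members act on sterols and triterpenes. LOC103936676 had 52.02, 64.55 and 47.62 FPKM under B deficiency, against 0.04, 0.09 and 0 FPKM in the controls. Nearly all of its transcripts were thus measured in B deficiency, where it was the second most abundant member after CYP716B1 LOC125468826. The log2 fold change was 8.62 ± 0.254 (SE, adjusted p = 6.34e-06). With control values this close to 0 its size was set largely by the pseudocount, and it was 5.73 on log2(FPKM + 1) and 10.53 on log2(FPKM + 0.01). LOC103936676 passed the minimum level only through its B deficiency libraries, so its call is given as a description. The other tested CYP87A3 gene, LOC103934599, had 1.27, 0.92 and 1.01 FPKM under B deficiency, against 0.36, 0.67 and 0.85 FPKM in control. These groups did not overlap, and the log2 fold change of 0.73 did not pass the test (adjusted p = 0.162). The remaining member, LOC103962452, was listed at 0 in every library.

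CYP716 enzymes are known for oxidising triterpene skeletons such as beta-amyrin in several plant species. Both tested genes of this family, described as CYP716B1, were higher in every B deficiency library than in any control library. LOC125468826 had 110.61, 59.49 and 111.01 FPKM under B deficiency, against 30.45, 29.4 and 32.75 FPKM in control. Libraries 1 and 3 of B deficiency were close to each other, and library 2 lay between them and the control. The log2 fold change was 1.54 ± 0.228 (SE, adjusted p = 0.00283), and it was 1.84 without library 2. LOC103943811 had 28.86, 30.59 and 28.76 FPKM under B deficiency, against 22.33, 21.73 and 23.79 FPKM in control. Its log2 fold change of 0.38 ± 0.0637 had an adjusted p of 0.00496 and stayed under the minimum fold. The other CYP716B1 genes, LOC125468824 at 0 throughout and LOC103927621 at up to 0.55 FPKM, were not tested. LOC125468824 has the same best protein match as LOC125468826, and LOC103927621 the same as LOC103943811, so reads of these copies may have been divided between them.

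**Figure D2:**
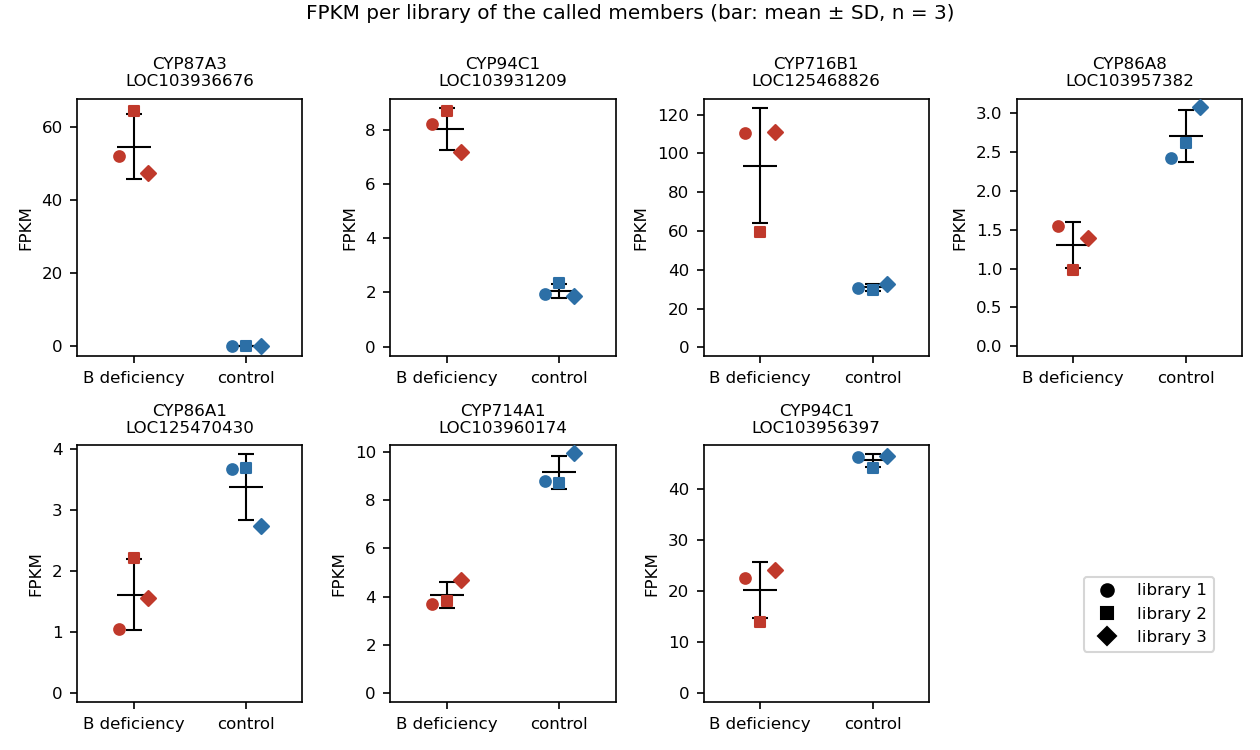
FPKM of the 7 called members in each library, with B deficiency (red) left of control (blue), marker shapes for libraries 1 to 3 and black bars for the mean ± SD (n = 3). The groups do not overlap in any panel, the control values of CYP87A3 LOC103936676 lie at or near 0, and library 2 of B deficiency stands apart for CYP716B1 LOC125468826.

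The CYP94 family contains fatty acid hydroxylases and the enzymes that inactivate jasmonoyl-isoleucine, the active form of the hormone jasmonate. In Arabidopsis, CYP94B3 hydroxylates jasmonoyl-isoleucine and CYP94C1 oxidises the product further. Of the 13 CYP94 genes 9 were tested, and 5 had an adjusted p under 0.05, 3 higher and 2 lower, beside 27.3% of all genes. The family thus contained changes in both directions, also among genes of the same name.

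The 3 tested CYP94C1 genes had an adjusted p under 0.05, 2 of them higher and 1 lower. LOC103931209 had 8.2, 8.68 and 7.18 FPKM under B deficiency, against 1.95, 2.34 and 1.87 FPKM in control. It rose 3.91 times on the ratio of means, with a log2 fold change of 1.92 ± 0.138 (SE, adjusted p = 0.000129). LOC103956397 had 22.59, 13.91 and 24.08 FPKM under B deficiency, against 46.4, 44.21 and 46.42 FPKM in control. It was the most abundant CYP94C1 gene of the control root tips, and every B deficiency library lay below them. Its log2 fold change was -1.21 ± 0.192 (adjusted p = 0.00376). Without library 2, the lowest of the B deficiency libraries, it was -0.97 (adjusted p = 3.76e-05), short of the minimum fold. LOC103940218 had 19.23, 32.12 and 18.97 FPKM under B deficiency, against 11.31, 13.58 and 12.65 FPKM in control. Here library 2 was the highest, and the difference of 0.86 ± 0.202 on the log2 scale (adjusted p = 0.0187) fell short of the minimum fold. Without library 2 it was 0.61 (adjusted p = 0.00267), and leaving out any control library raised the adjusted p above 0.05, to as much as 0.0752. LOC103956397 exceeded LOC103940218 in each control library and in B deficiency libraries 1 and 3, and only in B deficiency library 2 was this order reversed.

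Among the CYP94B3 genes, none was called with all libraries. LOC103960885 had 5.76, 4.35 and 6.2 FPKM under B deficiency, against 2.83, 2.69 and 2.78 FPKM in control. Its groups were well apart, at a log2 fold change of 0.93 ± 0.155 (adjusted p = 0.00462), and without library 2 it was called at 1.08. LOC103958049, at 0.3, 0.68 and 0.65 FPKM under B deficiency, against 1.15, 1.11 and 1.22 FPKM in control, ran the other way, with a log2 fold change of -1.03 and an adjusted p of 0.0599. Without library 2 it was also called, at -1.20 (adjusted p = 0.0348). For LOC125467873 the groups overlapped (log2 fold change 0.70, adjusted p = 0.191).

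CYP94A1 and CYP94A2 were characterised in the vetch Vicia sativa as fatty acid hydroxylases. The CYP94A1 gene LOC103946020 had 6.85, 9.59 and 7.18 FPKM under B deficiency, against 11.75, 13.92 and 13.39 FPKM in control. It was lower in every library, at a log2 fold change of -0.73 ± 0.142 (adjusted p = 0.009). The second CYP94A1 gene, LOC103957302, had 8.05, 9.68 and 10.5 FPKM under B deficiency, against 6.94, 7.34 and 7.56 FPKM in control, a difference that did not pass the test (adjusted p = 0.0566). CYP94A2 LOC103929817 differed by -0.17 with an adjusted p of 0.797.

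**Figure D3:**
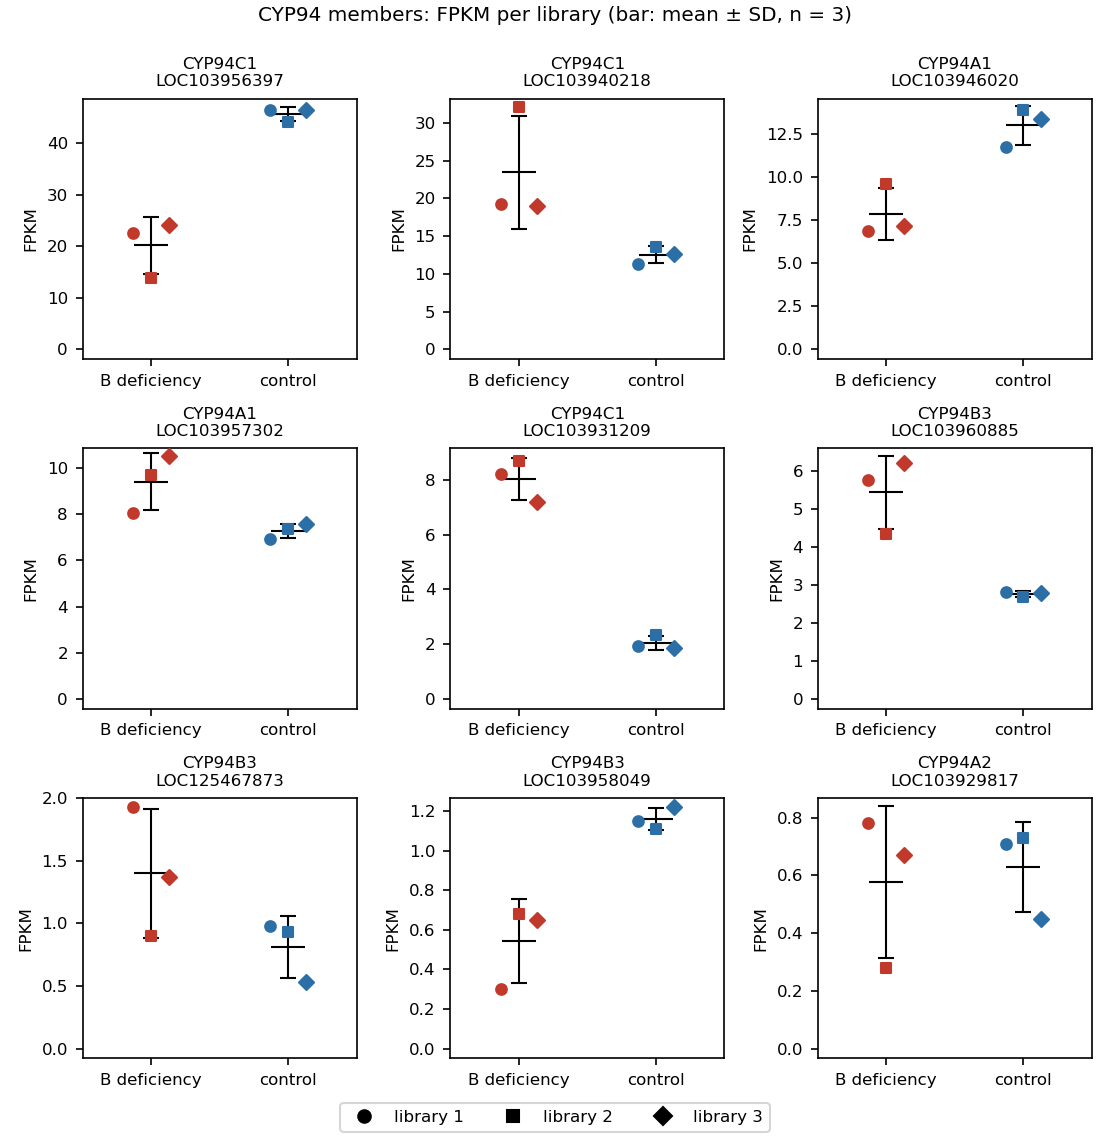
FPKM of the tested CYP94 genes in each library, with B deficiency (red) left of control (blue), marker shapes for libraries 1 to 3 and black bars for the mean ± SD (n = 3). CYP94C1 LOC103931209 lies above its control values and CYP94C1 LOC103956397 below them, and library 2 of B deficiency is the highest for LOC103940218 and the lowest for LOC103956397.

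CYP86 enzymes hydroxylate the end of fatty acid chains and supply monomers of cutin and suberin, the lipid polyesters of the plant surface and of root cell walls. In Arabidopsis, CYP86A1 and CYP86B1 are needed for root suberin and CYP86A8 for the epidermal surface. All 6 tested CYP86 genes had a lower mean in B deficiency, and their median log2 fold change was -0.84. Of all 28129 genes tested, 16064 had a negative log2 fold change. Among the CYP86 genes 2 were called lower, beside 3.83% of all genes, and 4 did not reach an adjusted p under 0.05. CYP86A1 LOC125470430 had 1.06, 2.22 and 1.56 FPKM under B deficiency, against 3.68, 3.7 and 2.75 FPKM in control. The groups did not overlap, and the log2 fold change was -1.07 ± 0.273 (SE, adjusted p = 0.0261). CYP86A8 LOC103957382 had 1.55, 0.98 and 1.39 FPKM under B deficiency, against 2.43, 2.62 and 3.08 FPKM in control. Its log2 fold change was -1.01 ± 0.216 (adjusted p = 0.0129), close to the minimum fold. Leaving out single libraries ended both calls. The log2 fold change of LOC125470430 then lay between -1.31 and -0.81 with an adjusted p of up to 0.0952, losing the call without B deficiency library 1 or 3 or control library 1 or 2. That of LOC103957382 lay between -1.14 and -0.84 with an adjusted p of up to 0.0592, losing it without B deficiency library 2 or control library 3.

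Library 2 of B deficiency was above libraries 1 and 3 for 4 of the 6 CYP86 genes. CYP86B1 LOC103943216 had 1.76, 4.75 and 1.65 FPKM under B deficiency, against 5.59, 5.49 and 5.26 FPKM in control. In libraries 1 and 3 its level was far under control, and in library 2 only slightly so. With all libraries its log2 fold change was -1.14 (adjusted p = 0.057), and without library 2 it was -1.62 (adjusted p = 0.000164). The most abundant CYP86 gene, CYP86A1 LOC103963213, had 3.64, 6.72 and 3.27 FPKM under B deficiency, against 7.03, 5.92 and 5.89 FPKM in control. Its groups overlapped through library 2 alone, with a log2 fold change of -0.53 (adjusted p = 0.177) with it and -0.84 (adjusted p = 0.00331) without it. CYP86B1 LOC125472024 differed by -0.67 on the log2 scale (adjusted p = 0.181), and by -0.99 (adjusted p = 0.0276) without library 2. CYP86B1 LOC103945558 was at -0.31 (adjusted p = 0.5). Summed over the family, the CYP86 level was 9.67, 17.4 and 9.53 FPKM in B deficiency, with a mean of 12.2 ± 4.51 (SD), against 20.6 ± 1.09 FPKM in control.

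**Figure D4:**
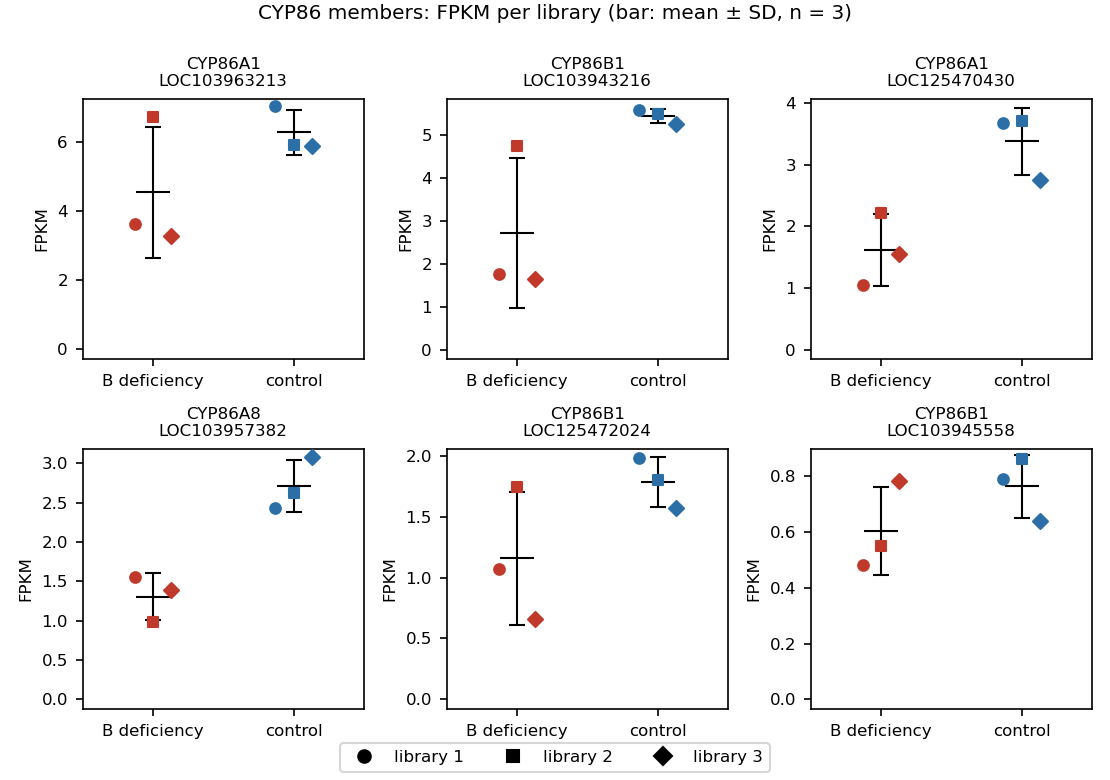
FPKM of the 6 tested CYP86 genes in each library, with B deficiency (red) left of control (blue), marker shapes for libraries 1 to 3 and black bars for the mean ± SD (n = 3). CYP86A1 LOC125470430 and CYP86A8 LOC103957382 lie below their control values in every library, and for CYP86A1 LOC103963213 and CYP86B1 LOC103943216 library 2 of B deficiency lies near the control.

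Brassinosteroids are steroid hormones of cell elongation. Their synthesis uses CYP90B1 (DWF4), CYP90A1 (CPD) and CYP85A enzymes in Arabidopsis and CYP724B1 in rice, and CYP734A1 (BAS1 in Arabidopsis) inactivates them. None of the 9 tested genes with these names was called, and 3 of them had an adjusted p under 0.05 at a smaller fold, a share near the 27.3% of all genes. CYP85A LOC125474404, which stands for the last steps of synthesis, had 15.77, 18.09 and 15.98 FPKM under B deficiency, against 11.38, 10.92 and 11.84 FPKM in control. It was higher in every B deficiency library, at a log2 fold change of 0.54 ± 0.0821 (SE, adjusted p = 0.00317). CYP90A1 LOC103936683 had 18.35, 19.91 and 19.2 FPKM under B deficiency, against 14.48, 14.16 and 14.38 FPKM in control. These groups were also apart, at 0.41 ± 0.065 (adjusted p = 0.00364). The most abundant gene named for the inactivating enzyme, CYP734A1 LOC103955422, which has no pathway annotation in the table, had 42.66, 42.87 and 48.11 FPKM under B deficiency, against 59.74, 55.76 and 58.9 FPKM in control. Every B deficiency library was below every control library, at a log2 fold change of -0.38 ± 0.0661 (adjusted p = 0.00535).

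The second CYP85A gene, LOC103962743, differed by -0.10 on the log2 scale (adjusted p = 0.596), and the second CYP90A1 gene, LOC103958600, by -0.44 (adjusted p = 0.229). Without library 2 LOC103958600 was at -0.69 (adjusted p = 0.0239). The CYP90B1 genes had 0.12 for LOC103941521 (adjusted p = 0.756) and 0.24 for LOC103960819 (adjusted p = 0.513). All 4 CYP90 genes were at their highest in library 2 within the B deficiency group. CYP734A1 LOC103947060 had 0.52, 1.53 and 1.18 FPKM under B deficiency, against 0.37, 0.51 and 0.67 FPKM in control. The groups overlapped, the adjusted p was 0.19, and without library 1 of B deficiency the gene was called at 1.26 (adjusted p = 0.0498). CYP734A1 LOC125477997 differed by -0.06 (adjusted p = 0.913). Both of these CYP734A1 genes are annotated to the brassinosteroid pathway. The 3 CYP724B1 genes were under the minimum level.

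CYP714 enzymes act on gibberellins, hormones of growth, and CYP714A1 (ELA1 in Arabidopsis) inactivates them. Both tested CYP714A1 genes were lower in B deficiency. LOC103960174 had 3.7, 3.8 and 4.67 FPKM under B deficiency, against 8.8, 8.71 and 9.96 FPKM in control. The libraries of each group were close together, and the log2 fold change was -1.16 ± 0.124 (SE, adjusted p = 0.000677). LOC103953709 had 7.55, 8.37 and 7.69 FPKM under B deficiency, against 9.82, 11.39 and 10.03 FPKM in control, a smaller difference of -0.40 ± 0.0941 (adjusted p = 0.0192, and up to 0.0744 when single libraries were left out). Of the CYP714C2 genes, LOC103964203 was the most abundant, with 14.89, 15.77 and 16.49 FPKM under B deficiency, against 12.15, 11.53 and 9.77 FPKM in control. It was higher by 0.50 ± 0.0995 (adjusted p = 0.0101). LOC103964202 and LOC103967535 had log2 fold changes of 0.45 and -0.07 with adjusted p-values of 0.111 and 0.637. Among the CYP714C2 genes under the minimum level, LOC103964220 had 0.08, 0 and 0.07 FPKM under B deficiency, against 0.23, 0.23 and 0.22 FPKM in control. When no minimum level was set it was called, at -1.17 (adjusted p = 0.0398), and with deposited values of 2 decimals so near 0 this difference may amount to a few fragments.

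The remaining tested members differed little. CYP704C1 LOC103967718, the only tested gene of a family that includes the sporopollenin enzyme CYP704B1 of Arabidopsis pollen, had 34.37, 35.52 and 33.45 FPKM under B deficiency, against 30.28, 28.99 and 28.74 FPKM in control. This difference of 0.23 ± 0.0563 had an adjusted p of 0.0216, and of up to 0.0831 when single libraries were left out. CYP97B2 LOC103939505, of a family of carotenoid hydroxylases, had 8.39, 7.74 and 8.07 FPKM under B deficiency, against 6.36, 7.44 and 6.68 FPKM in control, and did not pass the test (log2 fold change 0.24, adjusted p = 0.107). CYP72A15 LOC103951923 did not exceed 0.25 FPKM in any library.

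Summed over all 69 members, the level was 444 ± 9.98 FPKM under B deficiency, against 336 ± 3.9 FPKM in control (SD, n = 3 each). Without CYP87A3 LOC103936676 the sums were 389 ± 18.7 FPKM under B deficiency, against 336 ± 3.95 FPKM in control. CYP716B1 LOC125468826, still in these sums, averaged 93.7 FPKM under B deficiency, against 30.9 FPKM in control. The gap of this gene alone is larger than the gap of 52.7 FPKM between these sums. The CYP716 sum was 123 ± 28.8 FPKM under B deficiency, against 53.7 ± 2.89 FPKM in control. The CYP94 sum, in which genes moved both ways, was 77.7 ± 3.22 FPKM under B deficiency, against 86.6 ± 1.77 FPKM in control. CYP734 had 47.1 ± 2.81 FPKM under B deficiency, against 60.1 ± 2.01 FPKM in control. These sums are given as values, with no test, and they order the families by transcript level per length.

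**Figure D5:**
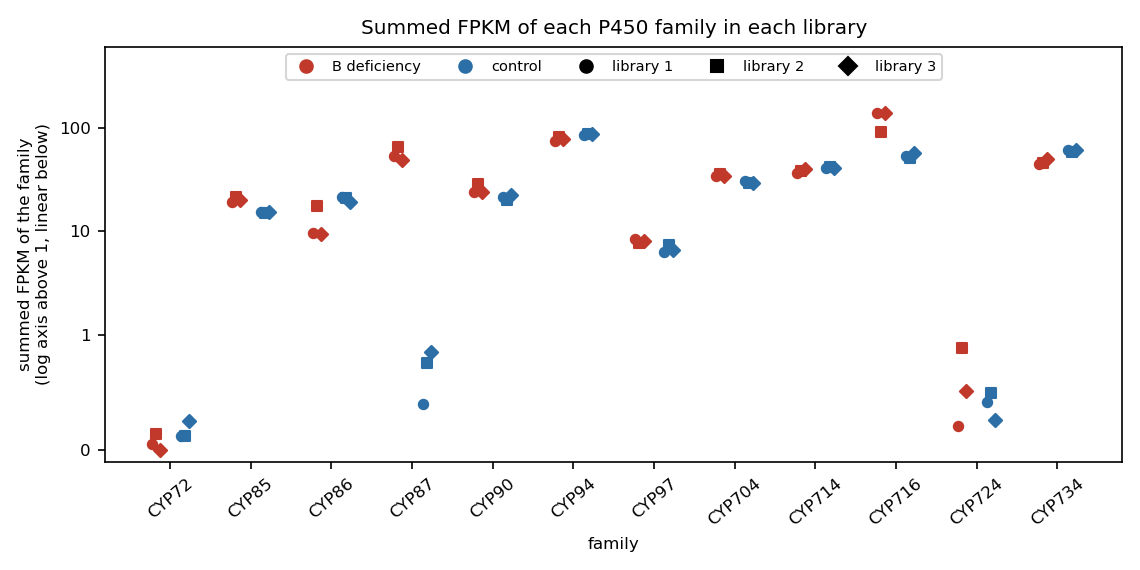
Summed FPKM of the members of each family in each library, with B deficiency (red) left of control (blue) and marker shapes for libraries 1 to 3, on an axis that is logarithmic above 1 and linear below. CYP87 lies at 55.8 FPKM on average in B deficiency and 0.67 FPKM in control, and the B deficiency libraries of CYP86 and CYP716 are spread more widely than their control libraries.

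A second spelling places the prefix CYP before the family number, and 29 further genes, 13 CYP72A219 and 16 CYP749A22, carry it. Of these 13 were tested, 0 were called higher and 1 lower by limma, and 4 had an adjusted p under 0.05, 1 higher and 3 lower, beside 27.3% of all genes. CYP749A22 LOC103938227 had 1.13, 1.49 and 0.75 FPKM under B deficiency, against 3.16, 3.24 and 3.88 FPKM in control, a log2 fold change of -1.57 ± 0.254 (adjusted p = 0.00413). Another CYP749A22 gene, LOC103947365, had 44.57, 43.09 and 46.57 FPKM under B deficiency, against 22.68, 25.24 and 23.11 FPKM in control. At 0.92 ± 0.0657 (adjusted p = 0.000129) it stayed just under the minimum fold. Together with these, 8 of 48 tested genes were called. All 16 CYP749A22 genes, LOC103938227 and LOC103947365 among them, are annotated to the brassinosteroid pathway.

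Genes of the same families also appear under the name of their function, and 12 such genes were looked up after the values had been seen. Ent-kaurenoic acid oxidase, the CYP88A enzyme of gibberellin synthesis, was represented by the abundant LOC103948777, with 87.82, 79.46 and 87.77 FPKM under B deficiency, against 137.4, 132.26 and 133.26 FPKM in control. All B deficiency libraries lay below control, at a log2 fold change of -0.66 (adjusted p = 0.000256). A second such gene, LOC103965514, ran the other way at 0.64 (adjusted p = 0.00802). Another, LOC108868325, was lower at -0.43 (adjusted p = 0.0345). The cytokinin hydroxylase-like LOC103932205, of the enzyme type that makes trans-zeatin, was the 1 called gene of the 8 tested. It had 1.15, 1.72 and 1.67 FPKM under B deficiency, against 0.61, 0.43 and 0.47 FPKM in control, a log2 fold change of 1.41 ± 0.28 (adjusted p = 0.00975), and 0.74 on log2(FPKM + 1). The more abundant cytokinin hydroxylase-like LOC103947823 averaged 18.5 FPKM under B deficiency, against 17.9 FPKM in control. Its groups overlapped (log2 fold change 0.04, adjusted p = 0.814). LOC125474787, also cytokinin hydroxylase-like, was under the minimum level. It had 0.71, 0.6 and 0.79 FPKM under B deficiency, against 0, 0.1 and 0.15 FPKM in control. When no minimum level was set its log2 fold change was 2.22 (adjusted p = 0.00725), with control values at or near 0. Of the 125 other P450 genes, 64 were tested and 14 were called, 7 in each direction, which is 21.9% beside the 20% of the members, and this difference was not tested.

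Other genes of the same pathways were read from lists of descriptions. The P450 redox partner list was drawn up for the reductases and cytochrome b5 proteins that pass electrons to P450 enzymes. Its wording also took in 2 genes described as acyl-lipid omega-3 desaturase (cytochrome b5), LOC103931220 and LOC103938921. None of the 21 tested genes of this list was called in limma. At a smaller fold 8 had an adjusted p under 0.05, 2 higher and 6 lower. Among the lower ones was the desaturase gene LOC103938921, at -0.72 (adjusted p = 0.000626). In the list 10 genes had an unadjusted p under 0.05. Of all genes tested 39.5% had such an unadjusted p. In the brassinosteroid list 0 of 18 tested genes were called higher and 2 lower, which is 11.1% beside 8.19% of all genes. An adjusted p under 0.05 was found for 6, 0 higher and 6 lower, beside 27.3% of all genes. Among these were both delta(24)-sterol reductase genes, LOC125471901 at -0.49 (adjusted p = 0.000829) and LOC103943196 at -0.35 (adjusted p = 0.00474). BES1/BZR1 LOC103963178 was at -0.93 (adjusted p = 0.00311). Both called genes are described as BRI1-associated receptor kinase 1-like, a coreceptor of brassinosteroid perception and of immune receptors. LOC125468220 had 3.55, 4.65 and 2.95 FPKM under B deficiency, against 18.78, 15.09 and 13.08 FPKM in control (log2 fold change -2.05, adjusted p = 0.000399). In the gibberellin list 4 of 31 tested genes were called higher and 0 lower, which is 12.9% beside 8.19% of all genes. At any fold, 11 of the list had an adjusted p under 0.05, 7 higher and 4 lower. Of the 4 called genes, 3 are gibberellin 2-beta-dioxygenases, which inactivate the hormone. LOC103945984 had 14.62, 14.04 and 16.93 FPKM under B deficiency, against 4.99, 6.37 and 8.4 FPKM in control (1.22, adjusted p = 0.00301). The fourth, the DELLA repressor RGL1-like LOC125471279, reached 2.09, 0.47 and 2.39 FPKM under B deficiency, while all control libraries list it at 0. It passed the minimum level only through its B deficiency libraries, so its call is given as a description.

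In the jasmonoyl-isoleucine list 1 of 31 tested genes was called higher and 1 lower, which is 6.45% beside 8.19% of all genes. At any fold, 15 had an adjusted p under 0.05, 5 higher and 10 lower, beside 27.3% of all genes. Both called genes are TIFY proteins, the family of the JAZ repressors of jasmonate signalling. TIFY 5A-like LOC103951292 had 12.99, 22.97 and 12.2 FPKM under B deficiency, against 5.66, 3.8 and 3.77 FPKM in control (1.81, adjusted p = 0.0028). TIFY 6A-like LOC103943066 had 14.47, 18.57 and 17.82 FPKM under B deficiency, against 37.55, 37.97 and 36.82 FPKM in control (-1.15, adjusted p = 0.000259). As with CYP94C1, genes of the same family thus changed in opposite directions.

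The suberin and cutin list holds the acyltransferases and elongases that work beside CYP86 enzymes. Of its 42 tested genes 4 were called higher and 4 lower, which is 19% beside 8.19% of all genes. At any fold, 17 had an adjusted p under 0.05, 6 higher and 11 lower, beside 27.3% of all genes. Glycerol-3-phosphate acyltransferase 3 LOC103953114 rose, with 7.13, 7.25 and 6.7 FPKM under B deficiency, against 1.5, 1.35 and 1.02 FPKM in control (2.37, adjusted p = 0.000117). Glycerol-3-phosphate acyltransferase 5-like LOC103942961, whose Arabidopsis counterpart makes root suberin, fell, with 0.87, 1.87 and 0.41 FPKM under B deficiency, against 3.05, 2.51 and 3.29 FPKM in control (-1.61, adjusted p = 0.0369). Like several CYP86 genes, it had its highest B deficiency value in library 2. Its call was lost when any library other than that one was left out, at an adjusted p of up to 0.118.

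In the triterpene list 13 of 25 tested genes had an adjusted p under 0.05, 8 higher and 5 lower, beside 27.3% of all genes. Of these, 4 were called higher and 1 lower, which is 20% of those tested beside 8.19% of all genes. The 4 genes called higher are all described as squalene monooxygenase-like, the enzyme that epoxidises squalene for sterols and triterpenes. LOC103952123 had 25.56, 28.92 and 27.34 FPKM under B deficiency, against 8.58, 7.12 and 8.41 FPKM in control (1.75, adjusted p = 4.57e-05). The lower gene, beta-amyrin synthase-like novel2839, had 4.2, 5.21 and 3.13 FPKM under B deficiency, against 13.43, 16.27 and 16.48 FPKM in control (-1.88, adjusted p = 0.000488). In the cytokinin list 1 of 23 tested genes was called higher and 2 lower, which is 13% beside 8.19% of all genes. Of those called lower, cytokinin dehydrogenase 2-like LOC103944039 was at a log2 fold change of -2.34. None of the 10 tested carotenoid genes was called in limma, where 2 had an adjusted p under 0.05, both higher, and 3 an unadjusted p under 0.05. The median log2 fold changes of the lists were -0.05 for redox partners, -0.20 for brassinosteroid, -0.02 for gibberellin, -0.14 for jasmonoyl-isoleucine, -0.13 for suberin and cutin, 0.21 for triterpene, -0.08 for cytokinin and 0.27 for carotenoid genes. Over all lists, 24 of 201 tested genes were called, 14 higher and 10 lower, which is 11.9% beside 8.19% of all genes.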

How the data were processed

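RNA-seq libraries of root tips were made from 3 B deficiency and 3 control samples, grouped by their labels. The authors deposited FPKM values rounded to 2 decimals, in 2 tables with the same values. The study's methods name STAR, the P. bretschneideri genome and RSEM, whereas the submitters' processing notes name HISAT2, Cufflinks 2.2.1, DESeq2 and the mouse builds mm8 and mm9. The tools behind the FPKM values are therefore uncertain. Left out of the annotated table were 1010760 lines naming no gene and the authors' 4 columns of means and ratios by group. Control columns were matched to labels by replicate number. The summed FPKM was 951246 to 971102 per library and 31364 to 31645 genes were above 0.

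Differences were computed with limma 3.58.1 (R 4.3.3, lmFit with eBayes, trend included) on log2(FPKM + 0.1), B deficiency minus control. Genes averaging 0.5 FPKM or more were tested, with Benjamini-Hochberg adjustment. Calls used the study's thresholds, a log2 fold change of 1 or more in either direction together with an adjusted p below 0.05. The study's own test modelled counts. Counts were not used here, and FPKM keeps no counting interval. The procedure was tested on simulated data. An exact permutation test of 3 against 3 libraries cannot go below p = 0.1. Same-numbered libraries did not deviate together (correlations 0.04, 0.035 and -0.005), so no pairing was used.

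The members and lists were chosen with earlier results of these data known. The genes named were to be the called members, the most abundant member of each family, all members of families with at most 3 tested genes, and up to 2 called genes per pathway list and direction. Other members were named after their values had been seen. The alternatives covered the pseudocount, the minimum level, scaling, trend, library weights, the replicate block, the minimum fold, the spelling of family names and leaving out each library. No genome was used, so no positions or sequences are given.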

Additional observations from a re-analysis of the deposited data

How the results depend on the processing

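Of the 7 called members, 4 were called under every alternative run, namely CYP87A3 LOC103936676, CYP716B1 LOC125468826, CYP94C1 LOC103931209 and CYP714A1 LOC103960174. For LOC103936676, which met the minimum level only through its B deficiency libraries, this is given as a description. Leaving out each library in turn gave 6 to 8 called members, with 3 to 4 higher and 3 to 4 lower, and 1889 to 2545 called genes in all, with 1088 to 1306 higher and 801 to 1239 lower. The pathway lists then had 16 to 27 called genes, beside 24. With no minimum fold change, 17 members were called, 10 higher and 7 lower, as were 7693 genes in all, 3362 higher and 4331 lower, and 78 genes of the pathway lists. On log2(FPKM + 1), 2 members and 664 genes in all were called lower, beside 4 and 1076, and 16 genes of the pathway lists were called. CYP86A1 LOC125470430 and CYP86A8 LOC103957382 lost their calls there, and LOC103957382 also did with median-of-ratios scaling, quantile normalization and library weights. With library weights CYP86B1 LOC103943216 and the CYP94B3 genes LOC103960885 and LOC103958049 were called, as they were without B deficiency replicate 2. The cause was not tested. With the replicate block, 7 members were called, 3 higher and 4 lower, and 19 genes of the pathway lists. Small differences far from the threshold changed sign. CYP734A1 LOC125477997, at -0.06, lay between -0.21 and 0.24 as single libraries were left out, with 0.24 without B deficiency replicate 3 and 0.04 without control replicate 3. CYP94A2 LOC103929817, at -0.17, was 0.10 with library weights and lay between -0.41 and 0.20, and CYP90B1 LOC103941521, at 0.12, was -0.06 with library weights and lay between -0.09 and 0.34, each lying past 0 without B deficiency replicate 2. The test on counts could not be run on FPKM values. Values rounded to 2 decimals and the lack of counts per gene limit what can be said of genes near the minimum level.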
